A study of Mus musculus with 6 samples.

Results

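The IFIT and IFITM genes encode antiviral proteins, and 8 of their mouse members were followed here, namely Ifit1, Ifit2, Ifit3, Ifit3b, Ifitm1, Ifitm2, Ifitm3 and Ifitm6. They were taken by gene symbol, through the GENCODE M21 annotation of GRCm38, from the 54532 genes listed for each library, and each of the 8 symbols matched 1 gene. The rule reads gene symbols only, but the families were picked with earlier results of these libraries known. RNA-seq was performed on control and PGAM5 KD iBMDMs, with 3 libraries in each group, and the question was how the knockdown of PGAM5 changed gene expression in macrophages under LPS. PGAM5 is a phosphatase of the mitochondria. iBMDMs are mouse bone marrow-derived macrophages immortalized by a retrovirus that carries v-raf and v-myc. Control cells carried a control shRNA and PGAM5 KD cells an shRNA against Pgam5, in both cases from a lentivirus. Both groups were incubated with LPS at 100 ng/ml for 4 hours before total RNA was isolated, and no untreated library was analysed, so the levels are those under LPS and not an induction by it. Each group had 1 shRNA label, and the sources do not say how many transduced lines lay behind it. The loss of PGAM5 therefore cannot be told apart from other differences between the transduced cells of the groups. The sources do not say whether the 3 replicates were separate cultures, and the p-values measure only the spread between these libraries.

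IFIT proteins are cytoplasmic proteins built of tetratricopeptide repeats, and they bind viral RNA or the translation factor eIF3 and so hold back translation. IFITM proteins are small membrane proteins that hinder the fusion of an enveloped virus with the membranes of the host cell. Both families are transcribed in response to interferon, when a complex that holds IRF9 binds a DNA element known as the ISRE, and in macrophages LPS can start this response through the TRIF branch of TLR4 signaling and IFN-beta.

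The values are FPKM, which count fragments relative to exon length and library depth, as the authors deposited them. The depth recovered from the FPKM steps was 18165597 to 20178817 fragments in control and 18163464 to 24388910 in PGAM5 KD libraries. Pgam5 was at 17.1, 13.0 and 13.4 FPKM in control and at 4.33, 5.75 and 4.53 FPKM in PGAM5 KD libraries, with a log2 fold change of -1.40 (SE 0.13, adjusted p = 0.000358). Here and below, log2 fold changes are PGAM5 KD over control on log2(FPKM + 1), which understates the change of low genes, and adjusted p-values are from limma over the 10540 genes with a mean of at least 1 FPKM. At an adjusted p under 0.05, 1771 genes were higher and 1575 lower in PGAM5 KD cells, and 1084 and 2276 when the values were scaled to TPM. Of 10 macrophage markers, Mertk was listed at 0 in every library and 9 were tested, with 4 higher (Fcgr1, Adgre1, Itgam and Cd14) and 3 lower (Csf1r, Lyz2 and Cd68), and their summed level was 2987 to 3073 FPKM in control and 2700 to 2729 FPKM in PGAM5 KD libraries. The part of these marker differences in the results below was not tested. Markers of neutrophils (7 of 10 at 0, S100a9, Ly6g, Elane and Mpo among them), myeloid progenitors (4 of 7 at 0), dendritic cells (2 of 7), lymphocytes (6 of 9) and fibroblasts or endothelium (3 of 8) summed to at most 0.648 FPKM per list in any library.

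The IFIT genes lie in 1 cluster of 99316 bases on chromosome 19 (GRCm38, 34550694 to 34650009), all on the plus strand, and the IFITM genes in 1 cluster of 63088 bases on chromosome 7 (140954837 to 141017924), with Ifitm1 on the plus strand and Ifitm2, Ifitm3 and Ifitm6 on the minus strand. RefSeq windows of 300 bases (GRCm38.p6, from 250 bases before to 50 after a start) were found for all 8 members, 2 of them for Ifit2. They were searched on both strands for the ISRE core, which is GAAA, any 2 bases and GAAA again, or on the other strand TTTC, any 2 bases and TTTC. It occurred in 1131 of all 32851 such windows (3.44%) and in at least 1 window of 3.99% of genes. A match was present for 5 of the 8 members, namely Ifit1, Ifit3 and Ifit3b with 2 matches each before the start, Ifitm2 with 1 before the start and Ifitm3 with 2 after the start. The 4 members with a match before the start are shown 5′ to 3′ on the strand of the gene, with the matches in capitals, because Ifit1, Ifit3 and Ifit3b hold matches with the same letters. The stretches were trimmed to bases outside annotated exons, and they are chr19:34640744-34640870 for Ifit1, chr19:34583329-34583528 for Ifit3, chr19:34607757-34607956 for Ifit3b and, on the minus strand, chr7:140955988-140956161 for Ifitm2.
Ifit1: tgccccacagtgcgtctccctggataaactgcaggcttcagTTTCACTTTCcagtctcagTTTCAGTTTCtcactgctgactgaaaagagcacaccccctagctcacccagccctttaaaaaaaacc
Ifit3: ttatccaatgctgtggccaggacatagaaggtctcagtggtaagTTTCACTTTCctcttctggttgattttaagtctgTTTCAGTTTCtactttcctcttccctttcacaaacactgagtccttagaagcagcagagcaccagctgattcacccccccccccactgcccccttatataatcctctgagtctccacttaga
Ifit3b: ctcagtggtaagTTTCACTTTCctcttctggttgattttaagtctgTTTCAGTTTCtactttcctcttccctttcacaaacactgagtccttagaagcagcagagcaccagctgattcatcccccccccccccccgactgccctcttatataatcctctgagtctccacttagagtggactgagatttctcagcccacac
Ifitm2: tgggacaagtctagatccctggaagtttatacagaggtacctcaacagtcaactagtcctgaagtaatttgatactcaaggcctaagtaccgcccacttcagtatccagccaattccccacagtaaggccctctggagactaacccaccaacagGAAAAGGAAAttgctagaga

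Ifit1, Ifit3 and Ifit3b carried the same letters at both matches, TTTCACTTTC and then TTTCAGTTTC. In Ifit1 they lay 104 to 95 and 85 to 76 bases before the start, in Ifit3 156 to 147 and 122 to 113 bases before it, and in Ifit3b 188 to 179 and 154 to 145 bases before it. The bases before the starts of Ifit3 and Ifit3b are near copies of each other, with 216 of 218 aligned bases identical, so their matches are not separate observations. Distances are counted from the RefSeq starts, and the stretch of Ifit3b runs on past the bases that end the stretch of Ifit3. The difference in distance between this pair therefore depends on where the starts were placed. Ifitm2 held GAAAAGGAAA 46 to 37 bases before its start. Ifitm3 held GAAAAGGAAA and GAAACCGAAA at bases 3 to 12 and 20 to 29 counted from 1 at its start. No ISRE match was found for Ifit2, Ifitm1 or Ifitm6, which says only that these letters are not in the windows searched. A match is a description of sequence, and no binding was measured.

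All 7 members that passed the filter rose in the PGAM5 KD libraries (adjusted p under 0.05 from limma), and none fell. Of all genes tested, 31.7% passed this threshold, 16.8% as higher and 14.9% as lower, and the counts for the lists of other genes are also read against these shares. Ifit3b passed the filter only through the PGAM5 KD libraries, which were bound to be higher, and the other 6 were all called higher. Among these 6, Ifitm2 lost its call in 9 of 14 alternative settings. The median log2 fold change of these 6 was 0.96, next to 0.01 over all genes tested. The groups did not overlap for any of the 7 (Ifit3b included), while 24.2% of all genes tested had every PGAM5 KD library above every control library. Ifit1 and Ifitm6 also passed a log2 fold change of 1, as did 0.787% of all genes tested. This count depended on the scale, since with a pseudocount of 0.1 and by voom on the recovered fragments Ifit2, Ifit3 and Ifit3b passed it as well, which made 5 members. When 1 library was left out it was 2 or 3, with Ifit3b added without control replicate 1 (1.02) or PGAM5 KD replicate 1 (1.02), Ifit2 without control replicate 2 (1.02) and Ifit3 without control replicate 3 (1.05). Ifitm1 was below the filter. More RNA per cell and more cells with the RNA cannot be told apart in bulk libraries.

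**Figure D1:**
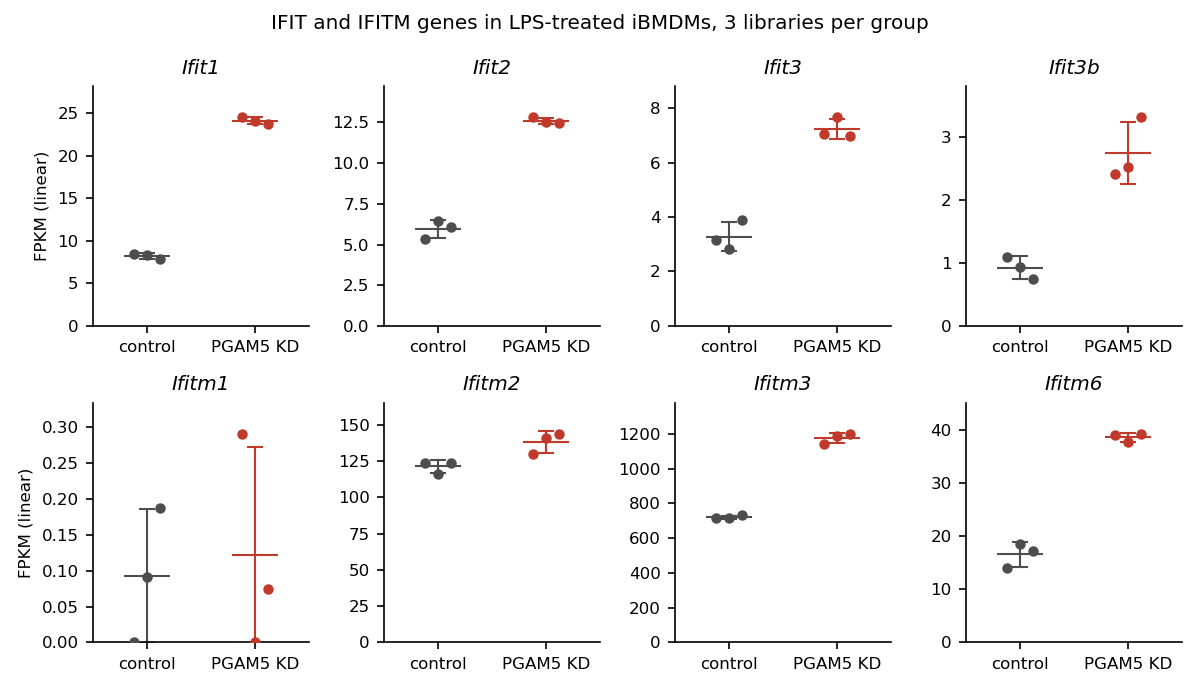
Level of each of the 8 members in FPKM on a linear axis from 0, by group. Points are libraries (3 per group), and the horizontal mark and bar are the mean ± SD. The groups do not overlap in 7 panels, with Ifit1 at 7.81 to 8.46 FPKM in control and 23.7 to 24.5 FPKM in PGAM5 KD cells, and they overlap for Ifitm1, which stayed below 0.3 FPKM.

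Ifit1 (ENSMUSG00000034459, chromosome 19, 34640871 to 34650009) binds viral RNA whose cap lacks the methyl marks of host mRNA. It was at 8.46, 8.38 and 7.81 FPKM in control and 24.5, 24.1 and 23.7 FPKM in PGAM5 KD libraries. The 3 PGAM5 KD libraries lay close together and far above the controls, and the mean rose from 8.21 ± 0.352 to 24.1 ± 0.402 FPKM (SD, n = 3), a ratio of 2.94. The log2 fold change was 1.45 (SE 0.05, 95% interval 1.34 to 1.56, adjusted p = 7.42e-06 from limma). Between 405 and 449 fragments lay behind each control value and between 1165 and 1537 behind each PGAM5 KD value. Of the windows of 50 bases in its transcript, 7.14% also occur in Ifit1bl1 or Ifit1bl2.

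Ifit2 (ENSMUSG00000045932, chromosome 19, 34550694 to 34576419), whose protein joins with the other IFIT proteins, was at 5.35, 6.45 and 6.08 FPKM in control and 12.8, 12.5 and 12.5 FPKM in PGAM5 KD libraries. No library of one group came near those of the other, and the mean went from 5.96 ± 0.556 to 12.6 ± 0.184 FPKM (SD, n = 3), a ratio of 2.11. The log2 fold change was 0.97 (SE 0.07, 95% interval 0.81 to 1.13, adjusted p = 0.000117 from limma), from 382 to 511 fragments per control and 893 to 1195 per PGAM5 KD library. No window of 50 bases of its transcript was shared with another gene.

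Ifit3 (ENSMUSG00000074896, chromosome 19, 34583531 to 34588731) encodes a protein that binds and stabilizes IFIT1 in human cells. Its level was 3.15, 2.81 and 3.87 FPKM in control and 7.07, 7.67 and 6.98 FPKM in PGAM5 KD libraries. The lowest PGAM5 KD library was well above the highest control, and the means were 3.28 ± 0.543 and 7.24 ± 0.375 FPKM (SD, n = 3), a ratio of 2.21. Its log2 fold change was 0.95 (SE 0.10, 95% interval 0.72 to 1.18, adjusted p = 0.000638 from limma).

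Ifit3b (ENSMUSG00000062488, chromosome 19, 34607970 to 34613401) is a second copy of Ifit3. It was the lowest IFIT member, at 1.10, 0.942 and 0.743 FPKM in control and 2.41, 2.53 and 3.32 FPKM in PGAM5 KD libraries. PGAM5 KD replicate 3 stood highest, and all 3 PGAM5 KD libraries were above the controls (0.928 ± 0.180 against 2.76 ± 0.494 FPKM, SD, n = 3, a ratio of 2.97). The mean of the controls was below the filter of 1 FPKM, so this gene was tested only because its PGAM5 KD values were high, and its call carries that selection. The log2 fold change was 0.96 (SE 0.13, 95% interval 0.65 to 1.27, adjusted p = 0.00215 from limma), and at these low values it depended on the scale, with 1.47 at a pseudocount of 0.1 and 1.58 by voom on the recovered fragments.

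The coding sequences of Ifit3 and Ifit3b were identical at 1198 of 1209 bases (99.09%), whereas all other pairs of IFIT members were at 62.6% to 69.2% of the aligned bases. In the transcript of Ifit3, 51.2% of the windows of 50 bases and 31.7% of those of 100 bases also occur in another gene, in both cases Ifit3b. How the authors' counting treated fragments that fit more than 1 gene is not given in the sources used here, so the split between this pair is uncertain. The fragments summed over both genes do not depend on the split, and they numbered 140, 137 and 161 in control and 377, 335 and 459 in PGAM5 KD libraries. Summed as FPKM, the pair was at 4.26, 3.75 and 4.62 FPKM in control and 9.48, 10.2 and 10.3 FPKM in PGAM5 KD libraries, a ratio of 2.37. Both sums can still lack fragments that were dropped as shared. Ifit3b took 28.6% (95% Wilson interval 21.7% to 36.5%), 27.7% (20.9% to 35.8%) and 18.0% (12.8% to 24.7%) of the fragments counted on the pair in control libraries. In PGAM5 KD libraries its share was 28.1% (23.8% to 32.9%), 27.5% (23.0% to 32.5%) and 35.3% (31.1% to 39.8%). The shares overlapped between the groups, with the lowest in control replicate 3 and the highest in PGAM5 KD replicate 3, and the log2 ratio of Ifit3b to Ifit3 differed by 0.42 (exact two-sided permutation p = 0.5, n = 3 per group). These intervals cover counting error only.

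Ifitm3 (ENSMUSG00000025492, chromosome 7, 141009586 to 141010770), which sits in endosomes and restricts influenza virus, was the most abundant member. It was at 715, 719 and 731 FPKM in control and 1145, 1185 and 1201 FPKM in PGAM5 KD libraries. The spread within each group was small beside the gap, 722 ± 8.73 against 1177 ± 29.0 FPKM (SD, n = 3), a ratio of 1.63. The log2 fold change was 0.70 (SE 0.03, 95% interval 0.64 to 0.77, adjusted p = 1.82e-05 from limma), and 0.42 after quantile normalization, where it remained past the threshold. It rested on 8804 to 9830 fragments per control and 14598 to 19852 per PGAM5 KD library.

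Ifitm6 (ENSMUSG00000059108, chromosome 7, 141015699 to 141017924), a member of the family known from rodents, was at 14.0, 18.5 and 17.3 FPKM in control and 39.1, 37.7 and 39.3 FPKM in PGAM5 KD libraries. Control replicate 1 was the lowest, and the PGAM5 KD libraries lay close together, above all controls. The mean went from 16.6 ± 2.33 to 38.7 ± 0.863 FPKM (SD, n = 3), a ratio of 2.33, with a log2 fold change of 1.18 (SE 0.09, 95% interval 0.96 to 1.40, adjusted p = 0.000195 from limma). No window of 50 bases of its transcript was found in another gene.

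Ifitm2 (ENSMUSG00000060591, chromosome 7, 140954837 to 140955987), whose protein like IFITM3 acts in endosomes, changed least. Its levels were 124, 117 and 124 FPKM in control and 130, 141 and 144 FPKM in PGAM5 KD libraries. The groups did not overlap, but PGAM5 KD replicate 1 was near the controls, and the means were 121 ± 4.21 and 138 ± 7.44 FPKM (SD, n = 3), a ratio of 1.14. The log2 fold change of 0.19 (SE 0.05, 95% interval 0.07 to 0.30, adjusted p = 0.0250 from limma) kept its sign but lost its call in 9 of 14 alternatives, among them scaling to TPM (0.11, adjusted p = 0.105) and leaving out control replicate 2 (0.16, adjusted p = 0.0772), control replicate 3 (0.20, adjusted p = 0.0536), PGAM5 KD replicate 2 (0.17, adjusted p = 0.0789) or PGAM5 KD replicate 3 (0.16, adjusted p = 0.0780). Its level is uncertain for 2 further reasons in the annotation. Of its 655 exon bases, 268 (40.9%) also lie in exons of Gm45717 on the same strand, and 48.5% of its windows of 50 bases occur in other genes, Ifitm3 and several pseudogenes among them. Gm45717 was listed at 0 in all 6 libraries and the pseudogene Gm8865 at no more than 0.357 FPKM.

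Ifitm1 (ENSMUSG00000025491, chromosome 7, 140967221 to 140969825), which acts at the cell surface, was barely detected, at 0, 0.0906 and 0.187 FPKM in control and 0.291, 0 and 0.0750 FPKM in PGAM5 KD libraries. These values came from 0, 2 and 4 fragments and from 7, 0 and 2 fragments. The groups overlapped (exact two-sided permutation p = 0.9, n = 3 per group), and no difference was detectable at this depth.

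The order of the levels was the same in both groups, Ifitm3, Ifitm2, Ifitm6, Ifit1, Ifit2, Ifit3, Ifit3b and Ifitm1 from high to low in FPKM. No 2 neighbours in this order overlapped between libraries of the same group. Summed over the family, the IFIT level was 18.1, 18.6 and 18.5 FPKM in control and 46.8, 46.9 and 46.5 FPKM in PGAM5 KD libraries, a ratio of 2.54 between the means. The IFITM sum was 853, 854 and 873 FPKM in control and 1314, 1364 and 1384 FPKM in PGAM5 KD libraries, a ratio of 1.57. These sums were not tested.

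The make-up of both sums differed between the groups. Ifit1 made up 46.8%, 45.1% and 42.2% of the IFIT sum in control and 52.4%, 51.5% and 51.0% in PGAM5 KD libraries. Ifit2 made up 29.6%, 34.7% and 32.8% in control and 27.4%, 26.7% and 26.8% in PGAM5 KD libraries, so that the share of Ifit1 was higher and that of Ifit2 lower in every PGAM5 KD library. The shares of Ifit3 and Ifit3b overlapped between the groups. Ifitm3 held 83.8%, 84.2% and 83.8% of the IFITM sum in control and 87.1%, 86.9% and 86.8% in PGAM5 KD libraries. Ifitm2 went from between 13.6% and 14.5% to between 9.88% and 10.4%, and Ifitm6 went from between 1.64% and 2.17% to between 2.76% and 2.97%.

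**Figure D2:**
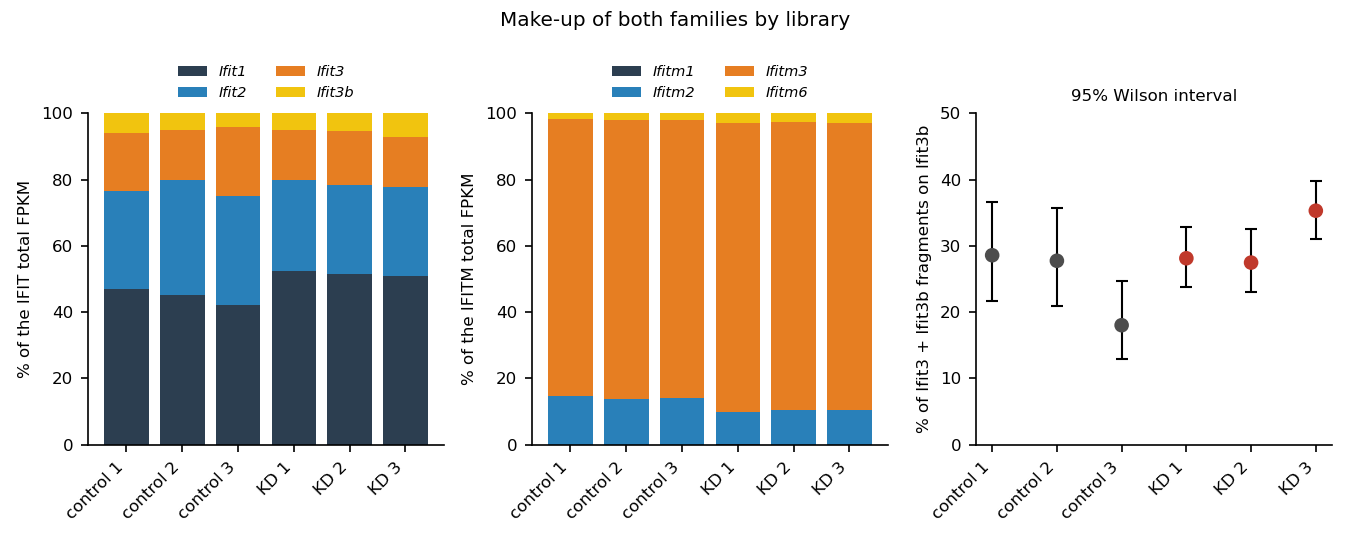
Left and middle, share of each member in the summed FPKM of the IFIT and of the IFITM family, in percent, 1 bar per library. Right, percent of the fragments counted on Ifit3 or Ifit3b that lay on Ifit3b, with 95% Wilson intervals, control libraries in grey and PGAM5 KD libraries in red. Ifit1 takes 51.0% to 52.4% of the IFIT bar in PGAM5 KD libraries against 42.2% to 46.8% in control, and the right panel overlaps between the groups.

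Because a ratio of 2 members within a library does not depend on the scaling of that library, 7 such ratios were compared between the groups. The ratio of Ifit1 to Ifit2 was 1.58, 1.30 and 1.29 in control and 1.91, 1.93 and 1.90 in PGAM5 KD libraries, a difference of 0.47 in the mean log2 ratio. Ifitm3 to Ifitm2 was 5.77, 6.17 and 5.92 in control and 8.82, 8.40 and 8.34 in PGAM5 KD libraries, a difference of 0.52. For these ratios and for Ifit1 to Ifit3 (0.40), Ifitm6 to Ifitm3 (0.53) and Ifitm6 to Ifitm2 (1.04), the groups did not overlap and the exact two-sided permutation test gave p = 0.1, the smallest it can give with 3 libraries against 3. The ratio of Ifit2 to Ifit3 differed by -0.07 and overlapped (exact permutation p = 0.9, n = 3 per group), as did that of Ifit3b to Ifit3. By this exact permutation test none of the 7 ratios could pass a p of 0.05.

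The other relatives of the families were near or below detection, and none of the 5 passed the filter. Ifit1bl2 has 2 RefSeq windows, of which 1 lies next to the start of Ifit1 on the other strand and holds the same 2 ISRE matches, and the other holds none. It was at 0.0654, 0.235 and 0.122 FPKM in control and 0.527, 0.556 and 0.390 FPKM in PGAM5 KD libraries. These values stood for 4, 16 and 8 and for 39, 34 and 32 fragments, did not overlap, and gave p = 0.1 in the exact two-sided permutation test (n = 3 per group). Since Ifit1bl2 shares sequence with Ifit1, which held 1165 to 1537 fragments in PGAM5 KD libraries, the part of shared fragments in this difference was not tested. Ifit1bl1, with 1 ISRE match in each of its 2 windows (0.169 ± 0.129 against 0.224 ± 0.101 FPKM, SD, n = 3) and Ifitm5, a member expressed in bone (0.344 ± 0.139 against 0.216 ± 0.329 FPKM), overlapped between the groups. Ifitm7 was at 0 in all 6 libraries, and Ifitm10 reached 0.0190 FPKM in PGAM5 KD replicate 1 and was at 0 in the others.

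Along the pathway to these genes, the ligands came first. Ifnb1, which encodes IFN-beta, was at 2.06, 0.661 and 0.615 FPKM in control and 0.425, 0.514 and 1.26 FPKM in PGAM5 KD libraries. The groups overlapped (exact two-sided permutation p = 0.5, n = 3 per group), control replicate 1 was the highest, and the values rested on 7 to 28 fragments. The other 9 of 10 listed interferon genes, Ifna1, Ifna2, Ifna4, Ifna5, Ifnab, Ifne, Ifng, Ifnl2 and Ifnl3, were at 0 in every library.

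Among genes for the receptors and their kinases, 2 of 8 tested genes were higher and 1 lower, with a median log2 fold change of 0.08. These shares are near those over all genes tested (16.8% higher and 14.9% lower), so they are no result about the list. Il10rb, a subunit shared by the receptors of IL-10 and IFN-lambda, was lower (log2 fold change -0.36, SE 0.07, adjusted p = 0.00799 from limma). Ifngr1 and Jak2 were higher by 0.29 and 0.22 on the log2 scale, and these calls were lost in 9 and 5 of 14 alternatives. Ifngr1 lost its call without control replicate 1 or 3 or any of the PGAM5 KD replicates (0.19 to 0.32, adjusted p 0.0630 to 0.115 from limma), and Jak2 without control replicate 1 or 3 or PGAM5 KD replicate 3 (0.20 to 0.22, adjusted p 0.0533 to 0.0581). Without control replicate 1, control replicate 3 or PGAM5 KD replicate 3, as well as in TPM and with a replicate block (Ifngr1 adjusted p = 0.0723, Jak2 adjusted p = 0.0547), no gene of this list was called higher. Ifnar1 and Ifnar2, the subunits of the receptor for IFN-beta, had log2 fold changes of -0.003 (95% interval -0.12 to 0.11) and 0.05 (95% interval -0.08 to 0.19).

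In the TRIF branch that leads from TLR4 to IFN-beta, 2 of 8 tested genes were higher and 1 lower, with a median of -0.04, which is again near the shares over all genes. Cd14, the co-receptor that hands LPS to TLR4, went from 461 ± 7.58 to 683 ± 13.4 FPKM (SD, n = 3, log2 fold change 0.56, SE 0.03, adjusted p = 2.68e-05 from limma). Ticam1, which encodes TRIF, was higher by 0.25 and Traf3 lower by 0.17 on the log2 scale, and their calls were lost in 6 and 7 of 14 alternatives. For Ticam1 these included leaving out control replicate 2 or 3 or PGAM5 KD replicate 1 or 3 (0.20 to 0.26, adjusted p 0.0517 to 0.0788 from limma), and for Traf3 leaving out any control replicate or PGAM5 KD replicate 2 or 3 (-0.19 to -0.14, adjusted p 0.0719 to 0.137). Ikbke and Irf3 were at -0.03 and -0.05 and did not pass the test.

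Among the transcription factors, 7 of 8 were higher and none was lower, with a median of 0.56, while 16.8% of all genes tested were higher. Where a mean of at least 5 FPKM was required and fewer of them were tested, 4 were higher. Irf7, which amplifies the interferon response, rose from 15.2 ± 0.698 to 48.1 ± 2.05 FPKM (SD, n = 3, log2 fold change 1.60, SE 0.05, adjusted p = 7.42e-06 from limma). Stat2, a subunit of the complex that binds the ISRE, was higher by 0.85 (SE 0.07) and Irf8 by 0.68 (SE 0.08) on the log2 scale. Irf9, a DNA-binding subunit of the same complex, stood at 12.4 ± 0.851 and 12.7 ± 0.495 FPKM (log2 fold change 0.02, 95% interval -0.12 to 0.17) and did not pass the test.

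The members were set beside 30 other genes that interferon stimulates in many cells, of which 27 passed the filter. Of these, 26 were higher and none was lower, with a median log2 fold change of 0.66, and 9 passed a log2 fold change of 1. Oasl2 and Zbp1 passed the filter only through the PGAM5 KD libraries, and without them 24 of 25 were higher, with a median of 0.74, while 16.8% of all genes tested were higher. The list was written with results of these libraries known, so its count is not independent evidence of a direction. Rsad2, which encodes the antiviral enzyme viperin, was at 1.51 (SE 0.06), Ifi27l2a at 1.45 (SE 0.20) and Ifi44l at 1.41 (SE 0.06), the 3 largest values of the list on log2(FPKM + 1). As a plain ratio of mean FPKM, that of Isg20 (3.21) was above that of Rsad2 (3.09). Cxcl10, a chemokine, had a value of 0.22 (SE 0.07) and missed the threshold (adjusted p = 0.0583 from limma), but passed it without PGAM5 KD replicate 2 (0.31, adjusted p = 0.00494), by voom and among genes of at least 5 FPKM.

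**Figure D3:**
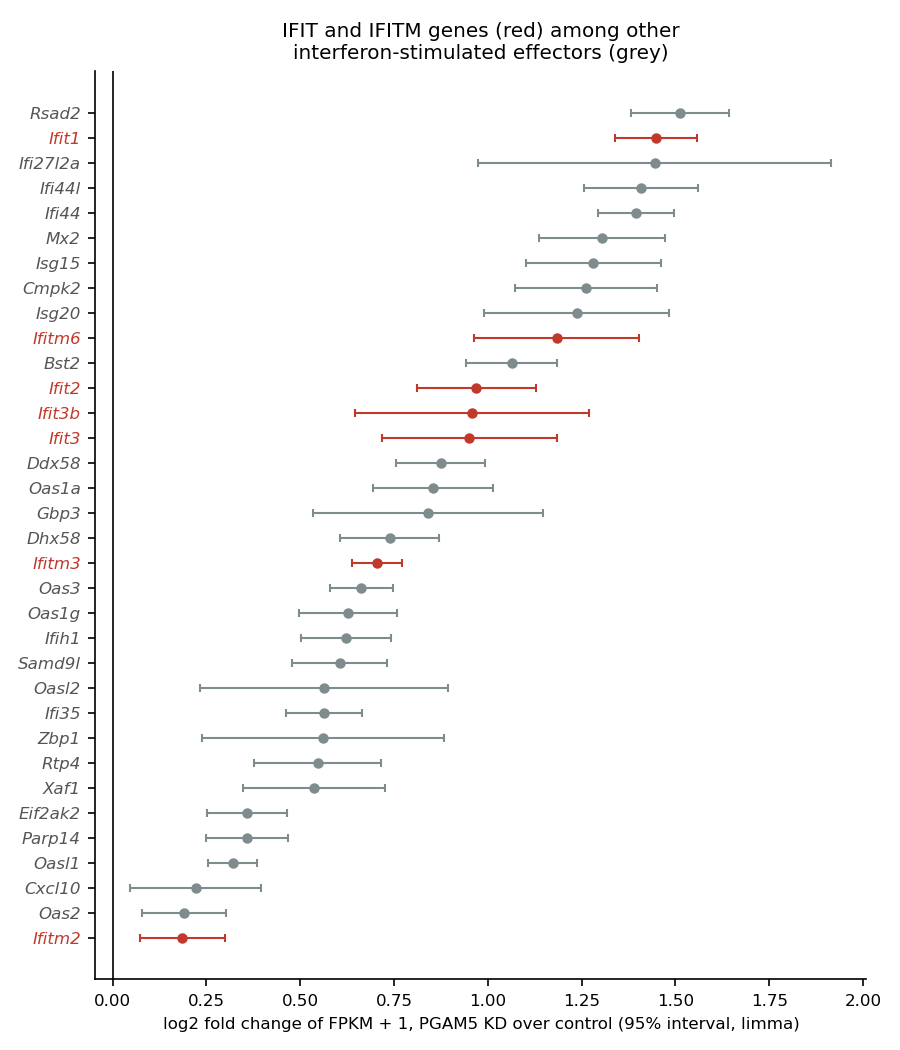
Log2 fold change of FPKM + 1, PGAM5 KD over control, with the 95% interval from limma, for the 7 tested IFIT and IFITM genes (red) and the 27 tested genes of the list of other interferon-stimulated effectors (grey), sorted by value. Ifit1 stands near the top at 1.45, next to Rsad2 at 1.51, and Ifitm2 at the bottom at 0.19.

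Of 8 negative regulators of interferon signaling, 4 were higher and 1 lower. Socs3, an inhibitor of cytokine receptors, and Usp18, which blocks IFNAR2 and removes ISG15 from proteins, rose by 1.16 (SE 0.04) and 1.07 (SE 0.05) on the log2 scale. The phosphatases Ptpn6 and Ptpn2 were higher by 0.23 (SE 0.03) and 0.25 (SE 0.06), the latter with its call lost in 6 of 14 alternatives, including without control replicate 1 or PGAM5 KD replicate 1 or 3 (0.19 to 0.26, adjusted p 0.0524 to 0.0586 from limma), while the phosphatase Ptpn1 was lower by 0.22 (SE 0.04). Pias1 (-0.11) and Ptpn11 (-0.04) did not pass the test. Nor did Socs1 (0.21), which passed the filter only through the PGAM5 KD libraries, and without it 4 of 7 were higher and 1 lower.

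Partners and modifiers of the IFIT and IFITM proteins showed no common direction, with 4 of 12 tested genes higher, 2 lower and a median of 0.05. Among subunits of eIF3, Eif3f and Eif3g were higher by 0.22 each on the log2 scale, Eif3a was lower by 0.17 and Eif3b was at 0.00. Eif3c and Eif3e, which encode the subunits that IFIT proteins are known to bind and were named after their values were seen, were at 0.04 (SE 0.03, adjusted p = 0.340 from limma) and 0.17 (SE 0.04, adjusted p = 0.0173). The call of Eif3e was lost in 6 of 14 alternatives, among them TPM (0.09, adjusted p = 0.138) and leaving out control replicate 1 (0.15, adjusted p = 0.0559), control replicate 3 (0.16, adjusted p = 0.0564) or PGAM5 KD replicate 3 (0.17, adjusted p = 0.0536). The call of Eif3g was lost in 4 of 14 alternatives, including without control replicate 2 (0.20, adjusted p = 0.0513 from limma) or 3 (0.20, adjusted p = 0.0520), and Eif3b was called lower after quantile normalization (-0.10, adjusted p = 0.0353). In TPM, and likewise after quantile normalization, 1 gene of the list was called higher, and without control replicate 3 it was 2. Zmpste24, a protease that supports IFITM proteins, was at 0.01 and did not pass the test. Nedd4, a ubiquitin ligase of IFITM3, was at 0 in all 6 libraries.

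Genes that lie within 100 kb of the clusters were then compared. Around the IFIT cluster 2 neighbours passed the filter, and both were lower. Lipa, the lysosomal acid lipase, was at 139 ± 1.91 and 95.3 ± 1.72 FPKM (SD, n = 3, log2 fold change -0.54, SE 0.03, adjusted p = 4.28e-05 from limma). Slc16a12, a transporter, was at 12.3 ± 0.715 and 10.1 ± 0.266 FPKM (log2 fold change -0.26, SE 0.05, adjusted p = 0.0123). Around the IFITM cluster 5 neighbours passed the filter and 2 of them were higher, Ric8a by 0.33 (SE 0.06, adjusted p = 0.00771) and the proteasome subunit Psmd13 by 0.29 (SE 0.04, adjusted p = 0.00278), both from limma. Pgghg, which lies between these and Ifitm2, was at 0.01 (SE 0.07), and Bet1l and Gm15542 were at -0.05 (SE 0.13) and 0.06 (SE 0.17). None of these 3 passed the test. Over all genes tested, 16.8% were higher and 14.9% lower. With so few neighbours tested, the counts called are no result about either locus.

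**Figure D4:**
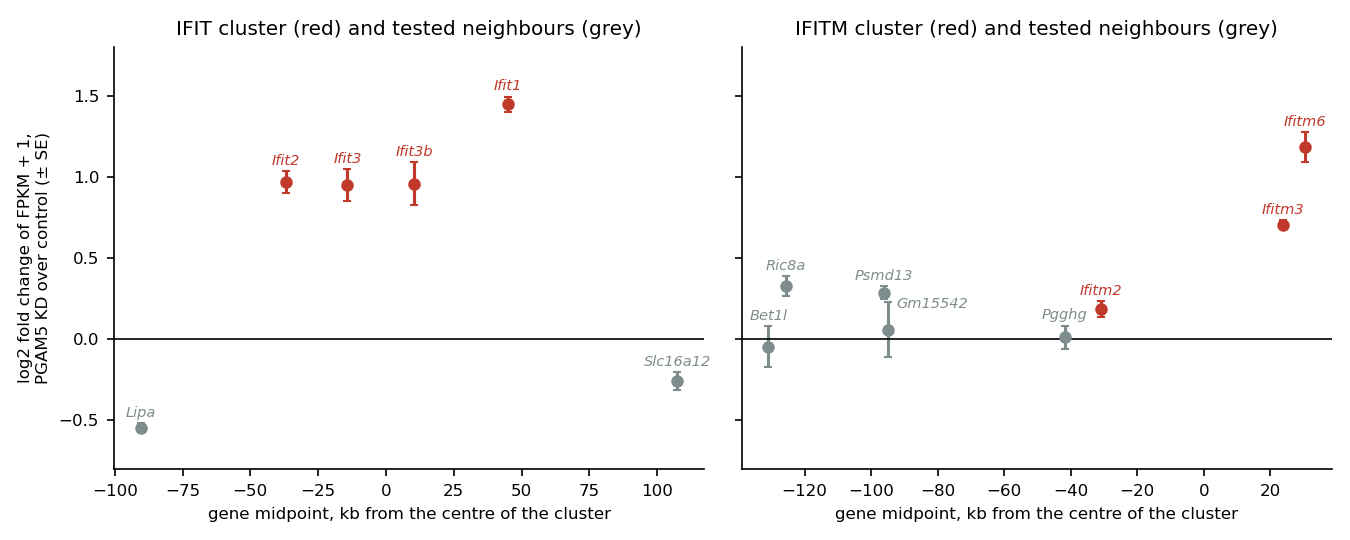
Log2 fold change of FPKM + 1, PGAM5 KD over control (± SE), against the distance of the gene's midpoint from the centre of its cluster in kb, for the tested IFIT and IFITM members (red) and the tested genes within 100 kb (grey). The 4 IFIT members lie between 0.95 and 1.45 while Lipa and Slc16a12 beside them are at -0.54 and -0.26, and the neighbours of the IFITM cluster lie between -0.05 and 0.33.

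The genes whose profiles over the 6 libraries were most like those of Ifit1 and Ifitm3 were found by the root mean square distance of log2(FPKM + 1), each profile centred on its mean. For Ifit1 they were Bnip3, a mitochondrial protein induced by hypoxia (distance 0.0474, log2 fold change 1.48), Ifi44 (0.0623 and 1.40) and Rsad2 (0.0648 and 1.51). For Ifitm3 they were Odc1, ornithine decarboxylase (0.0231 and 0.71), the chemokine Ccl4 (0.0257 and 0.74) and Oas3, a sensor of viral RNA (0.0276 and 0.66). With 2 groups of 3 libraries, such a likeness is set mostly by the size of the difference between the groups.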

How the data were processed

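RNA was measured in 3 control and 3 PGAM5 KD libraries, grouped by their labels. The authors deposited FPKM per library. Per the submitters' processing notes, which name mm10, HISAT2 2.0.5 and featureCounts 1.5.0-p3 were used. The annotation, strand setting and treatment of fragments that fit several genes are not given in the sources used here, and FPKM carry no scaling between libraries beyond depth. FPKM multiplied by exon length fell within 0.01 of whole fragments for 96.8% to 97.1% of values, which gave the depth. Gene names, exons and coordinates came from GENCODE M21, which held 54495 of 54532 gene identifiers.

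From these values, log2(FPKM + 1) was fitted with limma 3.58.1 in R 4.3.3 (lmFit, eBayes with trend, two-sided, Benjamini-Hochberg) for genes with a mean of at least 1 FPKM over the 6 libraries, and the fit was tested on simulated data. Values in single genes below that filter, and ratios, were compared by an exact two-sided permutation test over libraries. Coding sequences were compared in Biopython 1.88, look-alike transcripts sought with blastn 2.17.0 (at least 85% identity over 200 bases), and promoters taken from RefSeq, with a further motif search that is not reported here. The unit is FPKM, so no count model was the main test, and voom on recovered fragments served as an alternative. The members, lists and tests were chosen with earlier results of these data known. Named genes are the members, Pgam5, all relatives, ligands and negative regulators, at most 3 called and 2 uncalled genes of each other list, tested neighbours, and the 3 nearest profiles of Ifit1 and Ifitm3. Eif3c, Eif3e, Isg20, Nedd4, Oasl2 and Zbp1 were named in addition after their values were seen. Marker genes are named to describe the cells, and genes sharing sequence or exons with a member where they bear on it. Alternatives were a pseudocount of 0.1, no filter, a mean of at least 5 FPKM, TPM, quantile normalization, no trend, a replicate block, voom on recovered fragments with TMM, and leaving out each library. The cytokine, qPCR and other experiments of the study were not analysed here. Python 3.11.15 with pandas 2.3.3, scipy 1.17.1 and matplotlib 3.10.9 was used for all other steps.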

Additional observations from a re-analysis of the deposited data

How the results depend on the processing

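Of the 7 tested members, Ifit1, Ifit2, Ifit3, Ifit3b, Ifitm3 and Ifitm6 kept their direction and their call in every alternative in which they were tested, while Ifitm2 kept its direction and lost its call in 9 of 14 (log2 fold change 0.10 to 0.23, adjusted p 0.00900 to 0.159 from limma). Ifit3b was below the filter at a mean of at least 5 FPKM. Same-numbered libraries of the groups did not deviate together (correlations -0.02, 0.02 and -0.05), so no pairing by number was seen. Whether the numbers stand for a shared day or batch is not given and cannot be settled by these correlations. With a replicate block 2652 genes passed an adjusted p of 0.05 (3346 without it) and 6 members were higher. The number of genes above a log2 fold change of 1 was 83, and 154 at a pseudocount of 0.1, 49 at a mean of at least 5 FPKM, where fewer genes were tested, and 171 by voom. The number below -1 was 56, and 107, 27 and 108 under the same settings. Genes of the pathway lists called lower numbered 5, 3 to 4 when a library was left out, 7 in TPM and after quantile normalization, and 6 by voom. Members past a log2 fold change of 1 numbered 2, and 5 at a pseudocount of 0.1 and by voom. In TPM the log2 ratio of the IFIT sums was 1.27 (1.35 in FPKM) and that of the IFITM sums 0.58 (0.66 in FPKM). The cause of these shifts was not tested beyond what the construction of each setting fixes. With 3 libraries per group, depth limited Ifitm1, Ifnb1 and the relatives of the families, which rested on at most 39 fragments per library.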
